A study of Mus musculus with 6 samples.

Results

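This account covers the cytochrome P450 (CYP), UDP-glucuronosyltransferase (UGT) and glutathione S-transferase (GST) genes through which liver handles foreign compounds. They were taken as the protein-coding genes named Cyp1 to Cyp3 with a subfamily letter, Ugt1 to Ugt3 with the letter a or b, and Gst followed by a, m, p, t, o, k or z, leaving out Cyp2c70 and pseudogenes. Of 103 such genes among the 55416 rows of the count table, 79 had at least 10 counts in at least 3 libraries. These comprised 42 CYP, 17 UGT and 20 GST genes, and all 79 entered the test between the genotypes. The remaining 24 lay below that count minimum.

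The data are poly(A) RNA-seq counts of liver from 6 male mice, 3 of each genotype. Every animal carried floxed Ephb2 (Ephb2 flox/flox), received tamoxifen for 5 days at 8 to 10 weeks of age and then ate the choline-deficient, L-amino acid-defined high-fat diet for 8 weeks, with 45% of its energy as fat, 0.1% methionine and 1% cholesterol. WT denotes animals without Cre, and KO those that also carried PdgfrbCreERT2, a tamoxifen-activated recombinase under the promoter of the PDGF receptor beta gene, which is active in stellate and other mesenchymal cells. The driver is not aimed at hepatocytes, the main source of CYP, UGT and GST transcripts, and no group carried Cre without floxed Ephb2. The comparison asks how the liver transcriptome on this diet differs when EphB2 is removed from the mesenchymal cells. Ephb2 itself was at 9.46, 8.28 and 12.4 CPM (WT) against 6.01, 8.87 and 6.95 CPM (KO), with overlap between the genotypes (log2 fold change -0.46, SE 0.21, edgeR adjusted p = 0.85). Total counts ran from 21160690 to 26339251 per library. Levels are CPM, counts scaled to a common library total with edgeR's TMM factors. The labels number the animals within each genotype without further detail, so the tests measure the spread between these samples. In whole tissue, fewer cells of a type and less RNA per cell cannot be told apart.

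CYP enzymes sit in the endoplasmic reticulum and insert oxygen into drugs, steroids and fatty acids with electrons from the reductase Por. UGT enzymes then attach glucuronic acid, and GST enzymes attach glutathione, which makes the products soluble enough for export into bile or blood. In hepatocytes their genes answer to the aryl hydrocarbon receptor (Ahr), the pregnane X receptor (Nr1i2), the constitutive androstane receptor (Nr1i3) and the oxidative stress factor NRF2 (Nfe2l2), and many are strongest near the central vein. Growth hormone sets the sex bias of several of them, and inflammatory cytokines are known to lower many CYP transcripts.

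No member passed the test between the genotypes. edgeR's quasi-likelihood test called 0 of the 79 after adjustment over all 17083 genes tested (smallest adjusted p among the members = 0.85), and over all genes it called 0% as well. At an unadjusted p under 0.05, 0 members lay higher and 0 lower in KO livers, where 3.08% of all genes lay higher and 2.1% lower. DESeq2 gave 67 members an adjusted p and called 0 of them, against 0.0607% of all genes, and had 1 member, Cyp2b13, higher at an unadjusted p under 0.05 (1.45% of all genes). limma-voom called 0 members and 0% of all genes, with 0 members at an unadjusted p under 0.05 (5.16% of all genes). The libraries of the genotypes did not overlap in 2 members that lay lower in KO livers (4.9% of all genes) and in 0 that lay higher (6.21% of all genes). The members' median log2 fold change was -0.012, from -0.57 for Cyp2f2 to 1.38 for Cyp2b13, and the median of all genes was -0.0048. The members were measured with less precision than most genes. Their median standard error was 0.29 on the log2 scale, against 0.16 for all genes, and the median SD of log2 CPM over the 6 libraries was 0.42 against 0.20. Differences within these intervals were not detectable with 3 animals per genotype. The plot of fitted differences shows how wide the intervals are in the Cyp2b, Cyp2c and Gsta families.

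**Figure D1:**
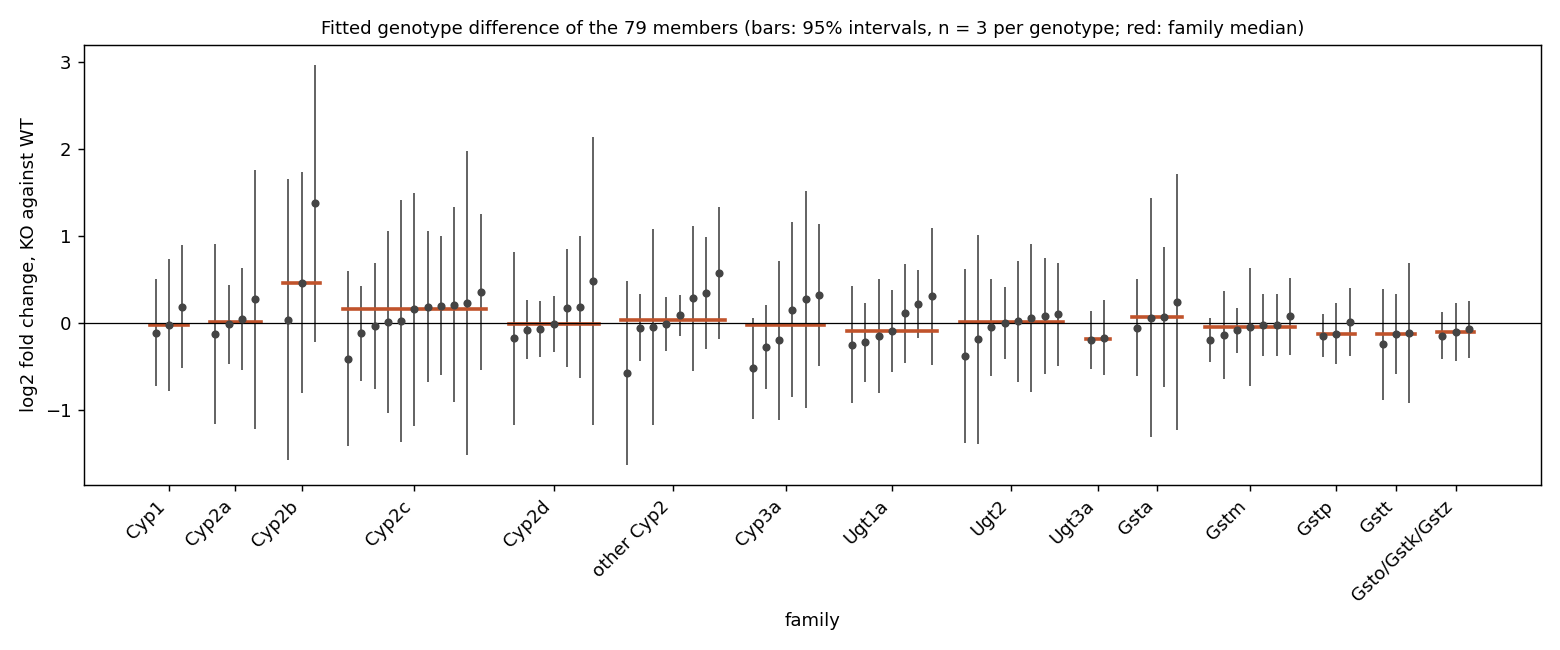
Log2 fold change of each of the 79 members, KO against WT (y axis), grouped by family along the x axis. Points are edgeR estimates, bars are 95% intervals with n = 3 per genotype and red lines are family medians; every interval includes 0, and the family medians lie between -0.18 (Ugt3a) and 0.47 (Cyp2b).

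The members varied widely between animals of the same genotype. WT replicate 3 was the lowest of the 6 libraries in 51 of the 79 members (64.6%, against 24% of all genes tested), in 27 of 42 CYP, 13 of 17 UGT and 11 of 20 GST genes. WT replicate 3 and KO replicate 2 together were the 2 lowest libraries in 46 members (58.2%, against 10% of all genes). WT replicate 1 was the highest library in 31 members (39.2%, against 17.1% of all genes) and WT replicate 2 in 24 (30.4%, against 13% of all genes). The median member lay -0.43 from its own mean in WT replicate 3 and -0.23 in KO replicate 2 on the log2 scale, while the median of all genes lay at -0.0052 and 0.011 there. The low animals were 1 from each genotype. As a share of all counts, the members took 0.697% in WT replicate 3, 0.876% in KO replicate 2 and between 1.27% and 1.58% in the other libraries.

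**Figure D2:**
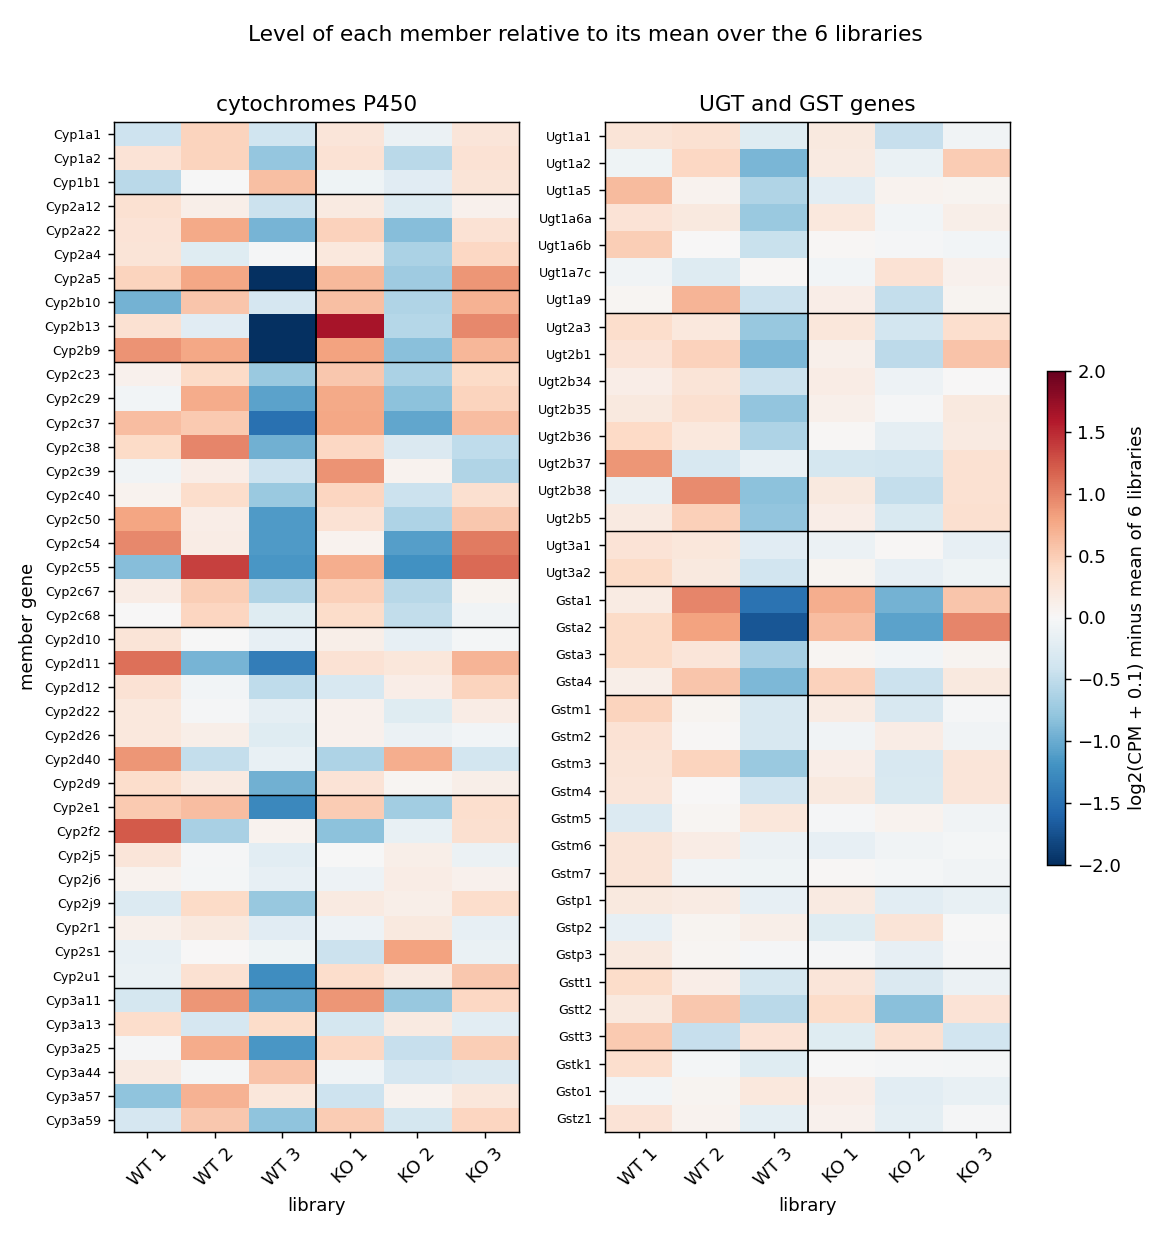
Each row is a member and each column a library, coloured by log2(CPM + 0.1) minus the row's mean over the 6 libraries, with values past -2 or 2 shown in the end colours. Horizontal lines part the families and the vertical line the genotypes; WT replicate 3, the lowest library in 51 of 79 rows, is the bluest column, KO replicate 2 is blue in many of the same rows, and most Gstm and Gstp rows vary little.

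Marker genes for cell types and states were set beside these levels, as means of log2 CPM over each list. The acute phase list (8 genes), whose products hepatocytes secrete in inflammation, stood at 9.38, 7.40 and 9.80 (WT) against 7.46, 10.5 and 7.60 (KO). Its high libraries were WT replicates 1 and 3 and KO replicate 2. Neutrophil markers (3 of 4 listed genes tested) stood at 2.81, 1.39 and 4.32 (WT) against 1.60, 3.62 and 1.59 (KO) and were highest in the same libraries. Kupffer cell markers (5 genes) stood at 4.64, 4.60 and 5.98 (WT) against 4.72, 4.39 and 3.69 (KO), highest in WT replicate 3. General hepatocyte markers (7 genes) varied little, at 11.5, 11.5 and 11.5 (WT) against 11.5, 11.2 and 11.4 (KO), so WT replicate 3 was not low in them and KO replicate 2 was the lowest. Pericentral markers outside the 3 superfamilies (7 genes) stood at 6.20, 5.93 and 5.08 (WT) against 5.77, 5.77 and 5.49 (KO), lowest in WT replicate 3. Cholangiocyte markers (6 genes) stood at 5.44, 5.96 and 5.70 (WT) against 6.03, 6.13 and 6.20 (KO), and endothelial markers (5 genes) at 5.55, 5.48 and 6.19 (WT) against 5.47, 5.52 and 4.97 (KO). In the genotype comparison 6 of 6 cholangiocyte markers lay above 0 (median log2 fold change 0.39). At an unadjusted p under 0.05, 4 of them lay higher, where 3.08% of all genes lay higher and 2.1% lower. Below 0 lay 5 of 5 Kupffer cell markers (median -0.98, 2 lower at that level) and 5 of 5 endothelial markers (median -0.31, 1 lower at that level). So did 3 of 3 neutrophil markers (median -0.69). Stellate cell markers split 2 above and 4 below 0 (median -0.013, 1 lower at that level). Periportal markers split 1 and 6 (median -0.065, 1 lower) and sex-linked genes 4 and 1 (median 0.12, 1 higher). The hepatocyte list split 1 and 6, the pericentral list 3 and 4 and the acute phase list 3 and 5, with 0 at that level. None of these lists held a gene past edgeR's adjusted threshold. The part of inflammation, other cells or zonation in the members' levels was not tested. WT replicate 1, also high in acute phase genes, was the highest library in 31 members. In 21 others it was among the 3 lowest, with WT replicate 3 and KO replicate 2.

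WT replicate 1 took different places in that order. In 21 members (26.6%, against 9.29% of all genes) WT replicates 1 and 3 and KO replicate 2 were the 3 lowest libraries. WT replicate 1 was the third lowest in 17 of these, among them Cyp3a11, Cyp3a25, Cyp2c29, Cyp2c55, Cyp2a5 and Gsta1, which also belong to the 46 above. The other 4 were Cyp1a1, Cyp2b10, Cyp2j9 and Cyp2u1. In 3 members (3.8%, against 10.6% of all genes) the same libraries were the 3 highest, namely Cyp3a13, Cyp2d40 and Gstt3. Cyp3a13, a CYP3A enzyme also made in the intestine, was at 168, 104 and 170.3 CPM (WT) against 104, 149 and 114 CPM (KO) (log2 fold change -0.27, SE 0.21). Its relative Cyp3a11 was thus low where Cyp3a13 was high. Cyp2d40 was at 38.3, 14.9 and 18.6 CPM (WT) against 13.4, 34.1 and 15.9 CPM (KO) and Gstt3 at 13.4, 6.76 and 11.3 CPM (WT) against 7.84, 11.5 and 7.13 CPM (KO). These 2 genes were chosen after their values were seen, as were Cyp3a25, Cyp1a1, Cyp2a4, Cyp2c38 and Cyp3a41a elsewhere in the text.

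The promoters of the members with the widest spread between animals are shown because these genes carry the differences between animals most plainly. Of the 79 members, 70 matched RefSeq's promoter table by symbol (GRCm38.p6). The stretches below are the 250 bases before the first start listed there for each gene, 5′ to 3′ on its strand. They cover the 6 members with the largest SD of log2 CPM and then the 2 with the smallest SD, Gstp3 and Cyp2j6. The stretch of Gsta2 lies inside the gene's annotated span (chr9:78331018-78355788), not before it. Those of Cyp2a5, Gstp3 and Cyp2j6 reach partly into the annotated genes. Cyp2a5 is annotated from 26835305 on the plus strand, so its TATAAA letters fall inside the gene. Gstp3 and Cyp2j6, on the minus strand, are annotated up to 4059569 and 96553661. Capitals mark the letters TTGCNNAA, a core recognised by C/EBP factors, and TATAAA, the letters of the TATA box, each searched on both strands. In Gsta2 the TATAAA letters are on the other strand, 246 bases before the listed start.
Cyp2b13 (chr7:26061245-26061494, plus strand): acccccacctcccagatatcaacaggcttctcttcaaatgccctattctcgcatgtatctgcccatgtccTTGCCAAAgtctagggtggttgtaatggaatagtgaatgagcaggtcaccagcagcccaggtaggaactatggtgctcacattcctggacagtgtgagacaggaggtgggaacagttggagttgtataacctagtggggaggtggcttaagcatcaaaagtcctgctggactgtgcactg
Cyp2b9 (chr7:26173159-26173408, plus strand): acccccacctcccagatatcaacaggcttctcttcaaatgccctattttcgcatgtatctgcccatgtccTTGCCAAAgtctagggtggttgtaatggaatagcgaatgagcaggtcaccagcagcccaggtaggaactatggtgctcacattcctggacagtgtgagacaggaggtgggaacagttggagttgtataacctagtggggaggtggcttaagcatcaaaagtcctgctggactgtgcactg
Cyp2c55 (chr19:39006769-39007018, plus strand): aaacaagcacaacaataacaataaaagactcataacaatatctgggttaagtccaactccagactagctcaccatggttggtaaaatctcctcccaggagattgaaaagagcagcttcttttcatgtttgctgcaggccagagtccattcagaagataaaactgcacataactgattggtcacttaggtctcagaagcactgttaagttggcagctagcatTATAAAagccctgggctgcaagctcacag
Cyp2a5 (chr7:26835089-26835338, plus strand): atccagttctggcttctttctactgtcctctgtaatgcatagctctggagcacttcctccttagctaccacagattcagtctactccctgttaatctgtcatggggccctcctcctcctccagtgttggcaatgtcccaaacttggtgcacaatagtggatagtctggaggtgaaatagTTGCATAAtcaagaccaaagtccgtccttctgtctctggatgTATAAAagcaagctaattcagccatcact
Gsta2 (chr9:78347146-78347395, minus strand): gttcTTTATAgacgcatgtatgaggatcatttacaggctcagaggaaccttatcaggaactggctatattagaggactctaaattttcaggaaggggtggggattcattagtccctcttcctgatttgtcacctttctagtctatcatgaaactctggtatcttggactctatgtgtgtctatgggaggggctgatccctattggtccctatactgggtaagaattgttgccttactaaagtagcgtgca
Cyp2c37 (chr19:39992174-39992423, plus strand): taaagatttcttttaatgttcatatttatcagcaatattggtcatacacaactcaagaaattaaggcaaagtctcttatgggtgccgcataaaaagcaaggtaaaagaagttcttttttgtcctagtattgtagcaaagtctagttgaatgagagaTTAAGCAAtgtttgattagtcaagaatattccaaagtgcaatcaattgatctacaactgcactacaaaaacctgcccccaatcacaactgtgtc
Gstp3 (chr19:4059448-4059697, minus strand): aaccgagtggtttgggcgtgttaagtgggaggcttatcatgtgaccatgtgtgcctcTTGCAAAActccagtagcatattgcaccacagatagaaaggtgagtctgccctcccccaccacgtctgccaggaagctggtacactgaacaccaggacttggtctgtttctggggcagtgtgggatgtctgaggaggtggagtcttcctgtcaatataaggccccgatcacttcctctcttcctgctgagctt
Cyp2j6 (chr4:96553652-96553901, minus strand): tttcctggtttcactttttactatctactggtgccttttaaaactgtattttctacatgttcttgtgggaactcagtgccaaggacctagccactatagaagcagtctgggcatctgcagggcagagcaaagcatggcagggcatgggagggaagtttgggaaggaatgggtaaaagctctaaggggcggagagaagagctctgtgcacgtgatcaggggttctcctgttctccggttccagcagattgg
The stretches of Cyp2b9 and Cyp2b13 were identical at 248 of 250 bases and differed by T48C and C104T, counted from 1 at the 5′ end with the base of Cyp2b9 given first. The C/EBP letters stood in 4 of the 6 stretches with a wide spread, and also in that of the steady Gstp3. They start 71 bases before the start site in Cyp2a5, 94 in Cyp2c37, 180 in Cyp2b9 and Cyp2b13 and 193 in Gstp3.

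Over all 70 matched members, 15 held TTGCNNAA in that window (21.4%), against 9.55% of 27025 RefSeq promoters of the same length. TATAAA was held by 22 members (31.4%, against 13.0% of all promoters), among them Cyp1a1, Cyp1a2, Cyp2e1 and Cyp3a11. The letters CAAAGTCCA, bound by HNF4, occurred in 4 members (5.71%, against 0.381%), Cyp2c40, Cyp2c67, Cyp2c68 and Cyp3a11. Of the 100-base transcript windows of Cyp2c40, Cyp2c67 and Cyp2c68, 44.1%, 23.7% and 19.8% also occur in other genes. The HNF1 site occurred in 2 (2.86%, against 0.411%), Ugt1a1 and Ugt1a9. The antioxidant response core TGACNNNGC occurred in 2 members (2.86%, against 10.2%) and the xenobiotic response core GCGTG in 11 (15.7%, against 28.2%). The STAT5 letters TTCNNNGAA occurred in 2 members (2.86%, against 7.18%). The everted repeat bound by the pregnane X receptor and a direct repeat bound by several nuclear receptors occurred in 0 members, against 0.007% and 0.011% of all promoters. All motifs were searched on both strands. A match is only a description of these letters in this window, and near-identical neighbours such as Cyp2b9 and Cyp2b13 were counted separately.

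Cyp1 genes, the classic targets of the aryl hydrocarbon receptor, are represented by 3 members. Cyp1a2, a constitutive pericentral enzyme that oxidises caffeine and aromatic amines, was at 242, 272 and 117 CPM (WT) against 242, 136 and 244 CPM (KO) (log2 fold change -0.018, SE 0.33, 95% interval -0.78 to 0.74). WT replicate 3 and KO replicate 2 were low, and WT replicate 1 came next at nearly the level of KO replicates 1 and 3. Cyp1a1, its inducible neighbour on chromosome 9, stayed between 1.19 and 2.23 CPM. Cyp1b1, which is made mainly outside hepatocytes, had WT replicate 3 as its highest library, at 14.2, 20.6 and 31.5 CPM (WT) against 19.5, 17.6 and 24.6 CPM (KO). It was named after its values were seen.

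Several of the widest spreads belonged to Cyp2 members on chromosome 7. Cyp2a5, the coumarin hydroxylase of mouse liver, was at 192, 243 and 34.1 CPM (WT) against 222, 86.5 and 262 CPM (KO) (log2 fold change 0.28, SE 0.65, 95% interval -1.21 to 1.77), a 7.68-fold range over the animals. Of the 100-base windows of the Cyp2a5 transcript 14.4% also occur in other genes, most often in its neighbour Cyp2a4. Cyp2a4, a steroid hydroxylase, ranged from 27.1 to 56.2 CPM. Cyp2b9, a CYP2B enzyme biased to females, was at 36.4, 33.2 and 3.87 CPM (WT) against 34.2, 10.8 and 30.9 CPM (KO) (log2 fold change 0.042, SE 0.70). WT replicate 3 was again the lowest and KO replicate 2 the next, with the other 4 animals close together. Cyp2b13, whose promoter stretch is nearly that of Cyp2b9, was at 1.68, 1.13 and 0.239 CPM (WT) against 4.44, 0.872 and 2.72 CPM (KO) (log2 fold change 1.38, SE 0.69, 95% interval -0.21 to 2.98, adjusted p = 0.85 by edgeR). It had the largest fitted difference of the 79 members, with overlap between the genotypes and 18.6-fold between the lowest and highest animal. Cyp2b10, the main target of the constitutive androstane receptor, was close to the count minimum at 0.248, 0.882 and 0.430 CPM (WT) against 0.915, 0.341 and 0.981 CPM (KO) (log2 fold change 0.47, SE 0.55). All 3 Cyp2b members lay above 0, under every scaling tried. Cyp2b9 did not keep that sign otherwise, at -0.47 without WT replicate 3 and -0.21 with the acute phase list as a covariate.

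Cyp2e1, the pericentral enzyme that oxidises ethanol and paracetamol, had the second highest level per kilobase of exon among all 79 members, at 784 CPM per kb averaged over the libraries. It was at 2190.1, 2335 and 623 CPM (WT) against 2150.4, 934 and 1924 CPM (KO) (log2 fold change -0.040, SE 0.49, 95% interval -1.17 to 1.09). WT replicate 3 and KO replicate 2 were low and the remaining animals lay within a narrow band. Cyp2f2, a periportal enzyme that activates naphthalene, was at 312, 85.1 and 141 CPM (WT) against 76.1, 121 and 166 CPM (KO) (log2 fold change -0.57, SE 0.46), with WT replicate 1 far above the rest, and without that library its difference was 0.094. Cyp2u1, an orphan fatty acid hydroxylase, was at 17.3, 23.6 and 7.99 CPM (WT) against 24.2, 21.7 and 27.6 CPM (KO) (log2 fold change 0.58, SE 0.33), low in WT replicate 3 and otherwise overlapping. Cyp2j6 and Cyp2j9, of the fatty acid epoxygenase group, had fitted log2 differences of 0.092 (SE 0.10) and 0.35 (SE 0.28). Cyp2j6 was among the steadiest of all members, with a 1.25-fold range.

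The Cyp2c genes form the biggest family here, with 11 members on chromosome 19. Their log2 fold changes ran from -0.41 (Cyp2c38) to 0.36 (Cyp2c39), 8 above 0 and 3 below, with a median of 0.16 that went to -0.25 without WT replicate 3. That library was the lowest in 8 of the 11. Cyp2c23, an arachidonic acid epoxygenase, had the family's highest level per kilobase and was at 137, 168 and 77.4 CPM (WT) against 188, 83.6 and 169 CPM (KO) (log2 fold change 0.20, SE 0.35). Cyp2c29, which is induced through the constitutive androstane receptor, was at 83.2, 144 and 40.9 CPM (WT) against 145, 48.8 and 118 CPM (KO) (log2 fold change 0.21, SE 0.49). Cyp2c37 was at 40.0, 37.4 and 9.18 CPM (WT) against 44.4, 12.6 and 40.0 CPM (KO) (log2 fold change 0.16, SE 0.58) and Cyp2c55 at 2.28, 11.0 and 1.82 CPM (WT) against 6.97, 1.74 and 9.31 CPM (KO) (log2 fold change 0.23, SE 0.76). In Cyp2c55 WT replicate 1 belonged with the low animals, whereas in Cyp2c37 it belonged with the high ones. Cyp2c39, a retinoic acid hydroxylase, had its highest level in KO replicate 1 at 3.57 CPM and lay between 1.20 and 2.06 CPM elsewhere.

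Cyp2d genes, which include many drug-metabolising enzymes on chromosome 15, were steadier than the Cyp2c genes in their summed level. Cyp2d26, with the family's highest level per kilobase, was at 522, 488 and 379 CPM (WT) against 474, 412 and 434 CPM (KO) (log2 fold change -0.073, SE 0.15, 95% interval -0.41 to 0.26). The summed level of the 7 members was 1240.2, 1079 and 849.5 CPM (WT) against 1108, 959 and 1029 CPM (KO), a 1.46-fold range. That sum was low in the same animals as Cyp2e1 but by far less. Single members were not all steady. The median SD of log2 CPM was 0.37 in the family, against 0.42 over all members. Cyp2d40 ranged 2.85-fold and was highest in WT replicate 1 and KO replicate 2.

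Among the 6 Cyp3a members, Cyp3a11, the main mouse enzyme of this subfamily and the textbook target of the pregnane X receptor, took most of the counts. It was at 1749, 4147 and 1070.3 CPM (WT) against 4134, 1318 and 2990.2 CPM (KO) (log2 fold change 0.28, SE 0.54, 95% interval -0.97 to 1.53). WT replicate 2, KO replicate 1 and KO replicate 3 were high and the other 3 animals low, so that each genotype spanned nearly the whole range. Cyp3a59 split the animals the same way at far lower levels (log2 fold change 0.33, SE 0.35). Cyp3a44, a gene biased to females, was at 1.83, 1.55 and 2.44 CPM (WT) against 1.52, 1.25 and 1.29 CPM (KO) (log2 fold change -0.51, SE 0.25, adjusted p = 0.85 by edgeR). It was 1 of the 2 members whose genotypes did not overlap, on counts of 29 to 51 per library. The female-biased Cyp3a41a stayed below the count minimum for a member, with counts of 3, 194 and 16 in WT and 6, 7 and 5 in KO livers, nearly all of them in WT replicate 2.

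**Figure D3:**
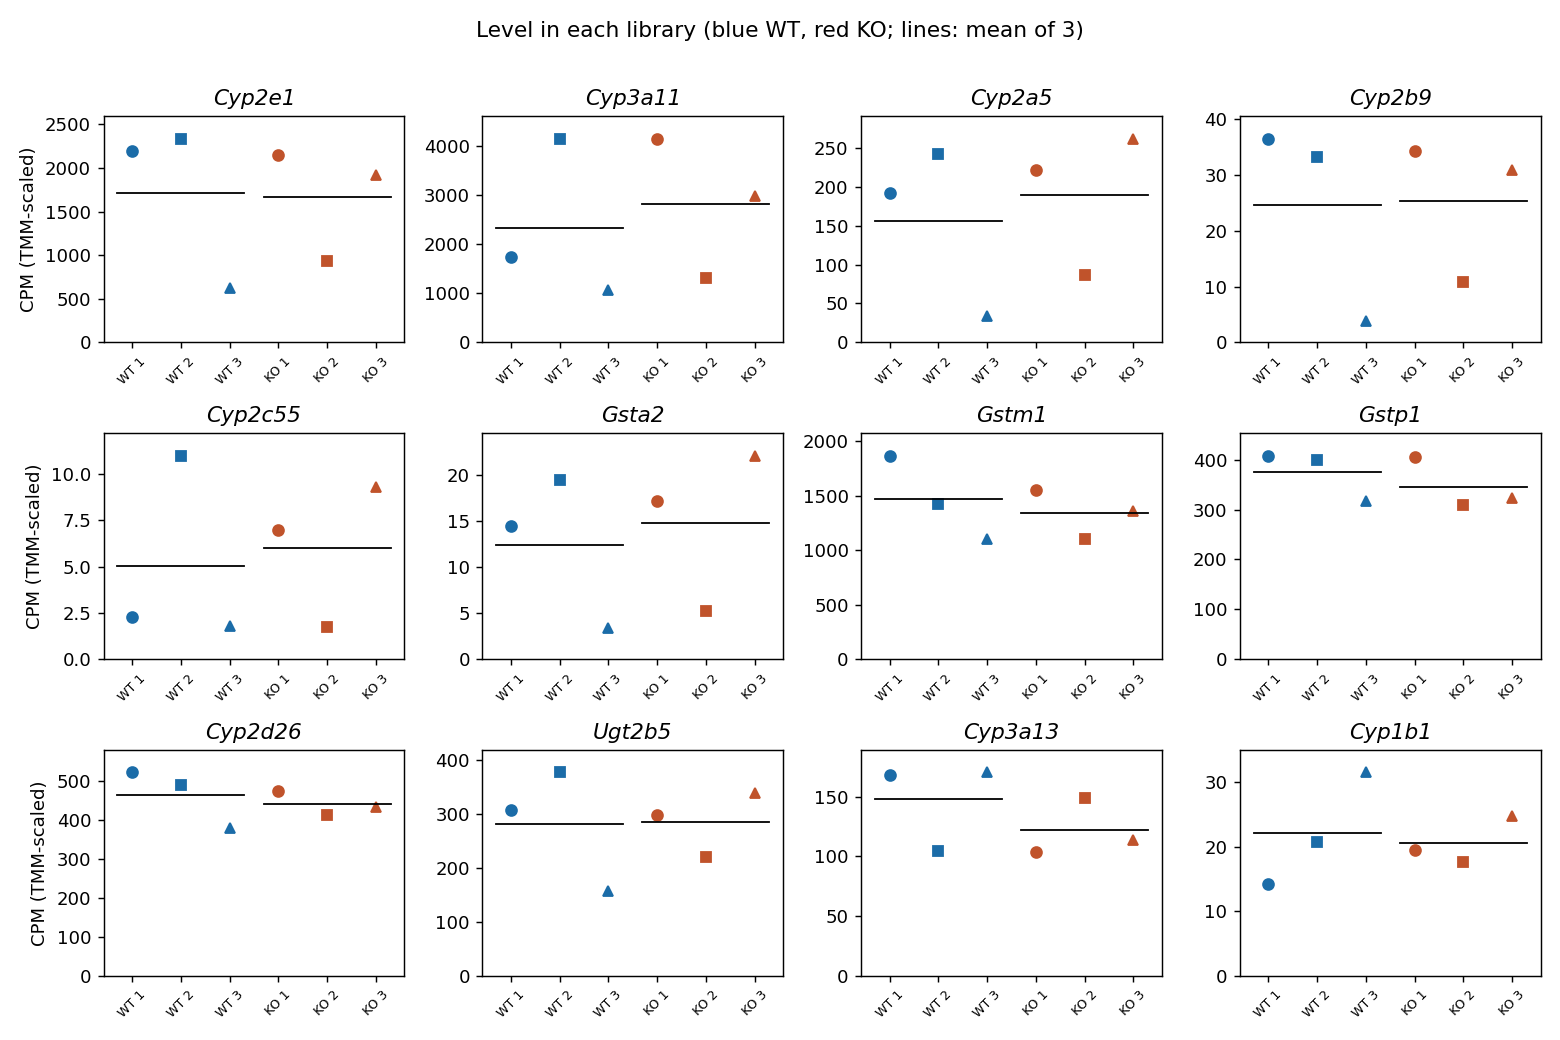
Level of 12 members in each library, as CPM scaled by TMM on a linear axis from 0, with WT in blue, KO in red and lines at the mean of 3. Cyp2e1, Cyp2a5, Cyp2b9 and Gsta2 are low in WT replicate 3 and KO replicate 2, Cyp3a11 and Cyp2c55 also in WT replicate 1, while Gstp1 and Cyp2d26 vary little and Cyp3a13 runs the opposite way.

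The Ugt1a genes are built from alternative starts that are spliced to shared exons on chromosome 1. Between 50.3% and 60.6% of the annotated exon bases of the 7 members belong to exons of other genes on the same strand as well, so their counts can rest mainly on their own exons or be shared between them. Ugt1a1, which conjugates bilirubin, had the family's highest level per kilobase and was at 152, 157 and 107 CPM (WT) against 145, 91.4 and 121 CPM (KO) (log2 fold change -0.22, SE 0.20, 95% interval -0.68 to 0.24). KO replicate 2 was the lowest and WT replicate 3 the next. Ugt1a2 and Ugt1a7c had fitted log2 differences of 0.31 (SE 0.34) and 0.22 (SE 0.17). Both were under 6 CPM in all libraries, and Ugt1a7c was highest in KO replicate 2. The summed level of the family was 258, 245 and 165 CPM (WT) against 229, 170.4 and 203 CPM (KO).

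The 8 Ugt2 members, which conjugate steroids and bile acids, lie in a cluster on chromosome 5. WT replicate 3 was lowest in 7 of the 8. Ugt2b5, with the family's highest level per kilobase, was at 306, 377 and 158 CPM (WT) against 298, 219.8 and 338 CPM (KO) (log2 fold change 0.024, SE 0.30, 95% interval -0.67 to 0.72). Of the 100-base windows in its transcript, 24.7% also occur in other genes. The family's log2 fold changes ran from -0.38 to 0.10 around a median of 0.012, and its summed level was 1297, 1396 and 701 CPM (WT) against 1197, 963 and 1292 CPM (KO). Ugt3a1 and Ugt3a2, which use other sugars as donors, both lay below 0 under every scaling. Ugt3a2 was at 259, 226 and 151 CPM (WT) against 204, 176 and 187 CPM (KO) (log2 fold change -0.16, SE 0.19) and Ugt3a1 at 29.8, 28.8 and 20.9 CPM (WT) against 22.8, 25.0 and 21.9 CPM (KO) (log2 fold change -0.19, SE 0.14), with overlap in both.

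Among the alpha class GST genes, Gsta1 and Gsta2, which are induced through NRF2 and the aryl hydrocarbon receptor, had some of the widest spreads of all members. Gsta2 was at 14.5, 19.5 and 3.35 CPM (WT) against 17.2, 5.23 and 22.2 CPM (KO) (log2 fold change 0.25, SE 0.64) and Gsta1 at 9.31, 16.5 and 2.92 CPM (WT) against 13.8, 4.25 and 12.2 CPM (KO) (log2 fold change 0.065, SE 0.60, 95% interval -1.31 to 1.44). WT replicate 3 and KO replicate 2 lay below all the other animals in both. Of the 100-base windows in the Gsta1 and Gsta2 transcripts, 81.8% and 35.0% also occur in other genes, so their counts are uncertain. Gsta3, the main alpha class transcript of this liver by level per kilobase, was at 361, 325 and 175 CPM (WT) against 282, 265 and 285 CPM (KO) (log2 fold change -0.049, SE 0.24), with WT replicate 3 low and KO replicate 2 close to the rest. All 4 alpha class members were lowest in WT replicate 3.

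The mu class gene Gstm1 had the highest level per kilobase of all members (952 CPM per kb) and was at 1869, 1428 and 1103 CPM (WT) against 1548, 1101 and 1361 CPM (KO) (log2 fold change -0.13, SE 0.22, 95% interval -0.64 to 0.38). The 7 Gstm members had a median log2 fold change of -0.038, with 6 below 0 by TMM and 2 below 0 by library size alone, so no direction can be given. Gstm6 was at 53.6, 49.9 and 41.4 CPM (WT) against 40.2, 42.7 and 43.7 CPM (KO) (log2 fold change -0.19, SE 0.11), with overlap between the genotypes. Gstp1, the pi class enzyme that is abundant in male mouse liver, was at 408, 399.8 and 318 CPM (WT) against 406, 309 and 322 CPM (KO) (log2 fold change -0.12, SE 0.15, 95% interval -0.47 to 0.23). Its neighbour Gstp3 was at 20.1, 18.0 and 17.3 CPM (WT) against 17.3, 15.6 and 17.3 CPM (KO) (log2 fold change -0.14, SE 0.11) and is the other member without overlap, with its lowest WT and highest KO values nearly equal. Gstp1 and Gstp2 share 52.8% and 63.5% of their transcript windows with other genes, so reads can be split between them.

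Theta class Gstt1, which detoxifies small halogenated compounds, was at 90.5, 76.7 and 54.9 CPM (WT) against 82.6, 57.0 and 64.2 CPM (KO) (log2 fold change -0.12, SE 0.20). Gstz1, the zeta class enzyme of tyrosine breakdown, was at 342, 297 and 246 CPM (WT) against 302, 247 and 278 CPM (KO) (log2 fold change -0.099, SE 0.15), and Gsto1, the omega class enzyme, was at 41.1, 44.7 and 49.6 CPM (WT) against 47.1, 36.9 and 38.8 CPM (KO) (log2 fold change -0.14, SE 0.12). All 3 overlapped between the genotypes. Together the 20 GST genes had 15 members below 0 by TMM and 9 by library size alone.

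Over the pooled superfamilies, CYP members varied most between animals and GST members least. The median SD of log2 CPM over the libraries was 0.53 for CYP, 0.40 for UGT and 0.25 for GST members. Single families did not keep that order, since the median was 0.78 in Gsta, above every CYP family except Cyp2b (1.31). The summed level of the CYP genes was 7622, 9920.4 and 3883 CPM (WT) against 9676, 4741 and 8270.5 CPM (KO). That of the UGT genes was 1843, 1895 and 1039 CPM (WT) against 1654, 1335 and 1704 CPM (KO), and that of the GST genes was 4008, 3503 and 2475 CPM (WT) against 3478, 2669 and 3187 CPM (KO). The summed CYP level ranged 2.55-fold over the animals, the UGT level 1.82-fold and the GST level 1.62-fold. Among families the range was widest for Cyp2b (8.72-fold), Cyp3a (3.43-fold) and the group of other Cyp2 genes (2.81-fold) and narrowest for Gstp (1.30-fold) and the Gsto, Gstk and Gstz group (1.34-fold). As means over a genotype, the summed CYP level was 7142 ± 3047 CPM in WT against 7562 ± 2543 CPM in KO livers (SD, n = 3 each). The UGT level was 1592 ± 480.2 CPM in WT against 1564 ± 200.1 CPM in KO livers. The GST level was 3329 ± 781 CPM in WT against 3111 ± 409 CPM in KO livers. The SD within a genotype exceeded the difference between the genotypes in each.

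**Figure D4:**
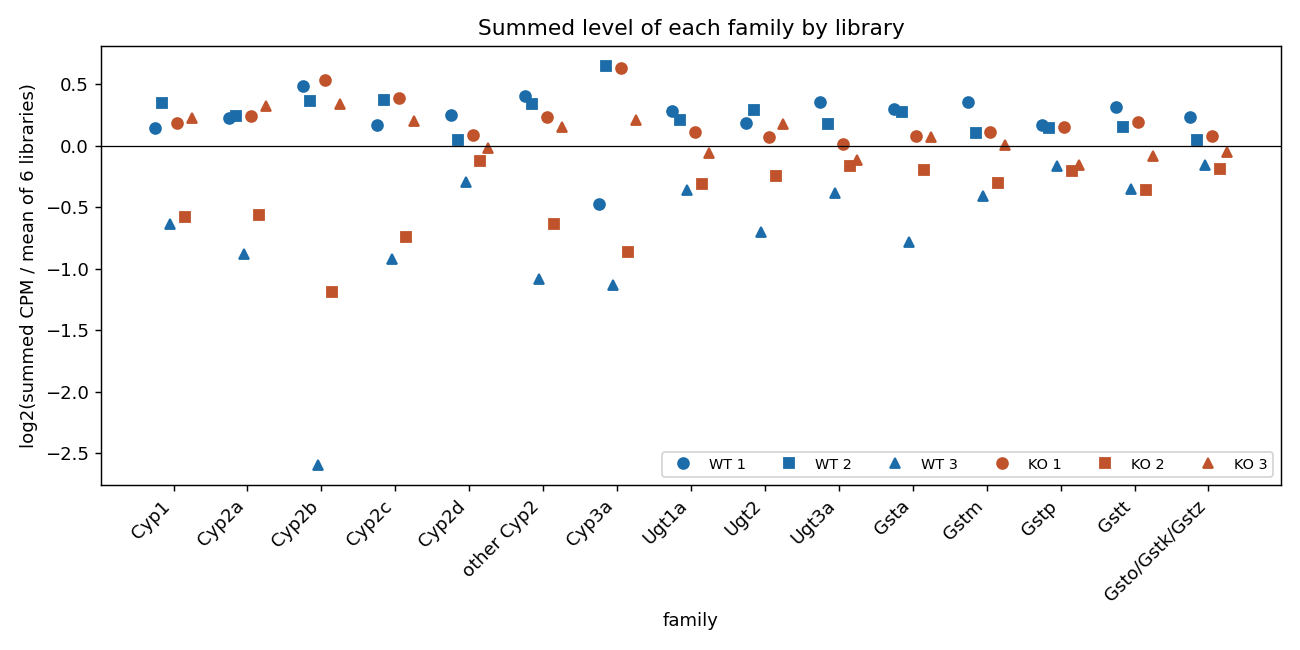
Summed CPM of each family in each library, as log2 of its ratio to the mean of the 6 libraries (y axis), with WT in blue and KO in red. WT replicate 3 is the lowest point in 12 of the 15 families and KO replicate 2 in the other 3, and the range shrinks from Cyp2b (8.72-fold) to Gstp (1.30-fold).

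Because WT replicate 3 was so often the lowest library, each family median was also computed with each library left out. Without WT replicate 3 the members' median log2 fold change went from -0.012 to -0.19, and without WT replicate 1 to 0.11, while the median of all genes stayed between -0.0066 and 0.00037 over the libraries left out. Without WT replicate 3, 14 of the 15 family medians moved down and 5 members lay lower in KO livers at an unadjusted p under 0.05, namely Gsta3, Cyp2c38, Ugt3a1, Ugt3a2 and Gstm6, where 1.83% of all genes in that fit lay lower. Their log2 fold changes there ran from -0.78 for Cyp2c38 to -0.30 for Gstm6, with an edgeR adjusted p of 0.99 for each. Without WT replicate 2, 4 members lay higher (Cyp2c55, Cyp2u1, Cyp2j9 and Cyp3a59) and 2 lower (Cyp3a13 and Cyp3a44) at that level, beside 6.21% and 4.46% of all genes in that fit, with adjusted p values from 0.379 to 0.466 by edgeR. Without WT replicate 1, Cyp2d11 lay higher at that level (2.05, edgeR adjusted p = 0.92) on fewer than 1 CPM per library, beside 2.01% of all genes. Without KO replicate 2 Cyp2b13 lay higher, beside 2.96% of all genes (1.81, edgeR adjusted p = 0.839). These genes were named after their values were seen. With the acute phase list as a covariate, 0 members reached an unadjusted p under 0.05 and the members' median was -0.069. The share of all genes at that level in that fit is not given here, so the count cannot be set against it.

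**Figure D5:**
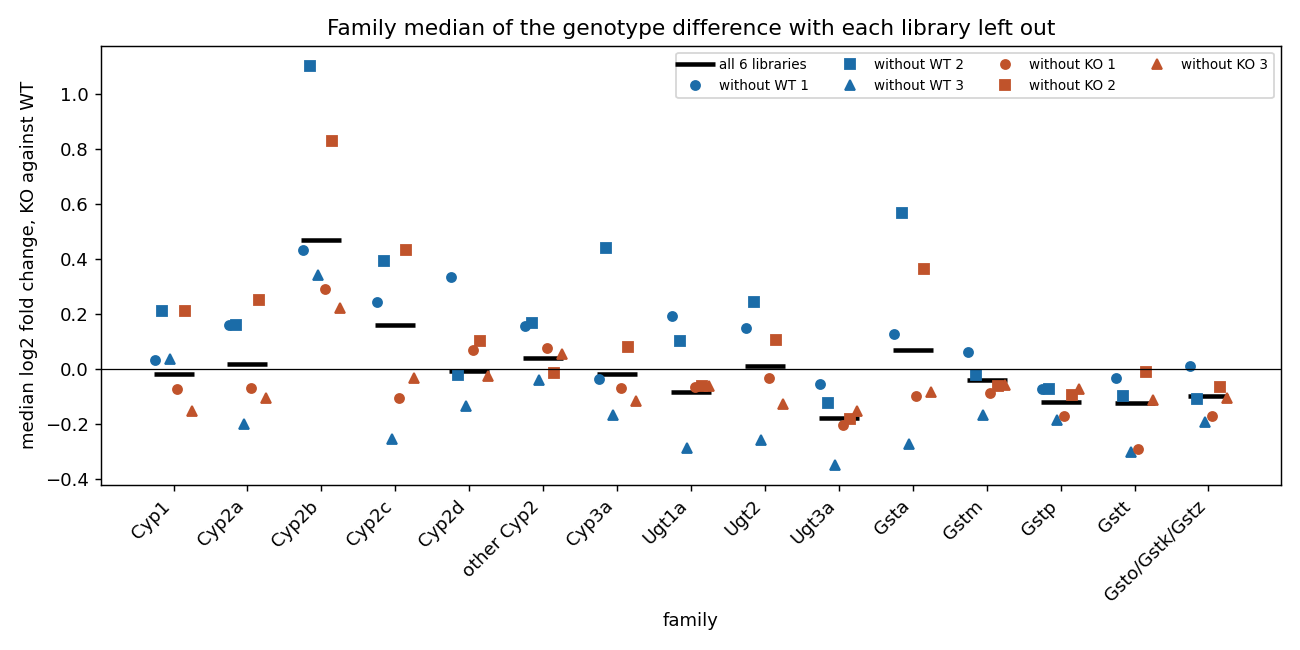
Median log2 fold change of each family, KO against WT (y axis), with all 6 libraries (black bars) and with each library left out (blue for a WT library, red for a KO library). Leaving out WT replicate 3 (blue triangles) gives -0.25 for Cyp2c and -0.27 for Gsta, and leaving out WT replicate 2 (blue squares) gives 1.10 for Cyp2b and 0.57 for Gsta.

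Genes around the members were read from lists of receptors, other enzymes and transporters. Of 22 receptors and partners of drug metabolism, 21 lay below 0 (median log2 fold change -0.20, against -0.0048 for all genes) and 0 passed edgeR's test. At an unadjusted p under 0.05, 3 lay lower and 0 higher, beside 2.1% and 3.08% of all genes. By library size alone 17 of the 22 lay below 0. Nr1i2, the pregnane X receptor, was at 66.5, 62.8 and 69.0 CPM (WT) against 57.2, 53.5 and 55.8 CPM (KO) (log2 fold change -0.25, SE 0.079, edgeR adjusted p = 0.85). Ahr was at 119.5, 119.9 and 139.7 CPM (WT) against 103, 110.0 and 88.8 CPM (KO) (log2 fold change -0.33, SE 0.11, edgeR adjusted p = 0.85). Cebpb, an inflammation-responsive C/EBP factor, was at 196, 145 and 268 CPM (WT) against 133, 120.0 and 117 CPM (KO) (log2 fold change -0.72, SE 0.20, edgeR adjusted p = 0.85). In these 3 genes KO lay below WT without overlap, as did 4.9% of all genes, and WT replicate 3 was the highest library. Nr1i3, the constitutive androstane receptor, was at 85.8, 54.4 and 33.8 CPM (WT) against 49.1, 49.7 and 42.4 CPM (KO) (log2 fold change -0.30, SE 0.29), lowest in WT replicate 3. The reductase Por was at 242, 282 and 331 CPM (WT) against 275, 141 and 195 CPM (KO) (log2 fold change -0.49, SE 0.23), highest in WT replicate 3, the animal in which most CYP transcripts were lowest. Rxra, the shared receptor partner, had a log2 fold change of -0.30 (SE 0.15) and Nfe2l2 of -0.043 (SE 0.10), and both overlapped.

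Of the other lists, 0 genes passed edgeR's test. Among 41 other oxidising and hydrolysing enzymes 14 lay above and 27 below 0 (median -0.059), but by library size alone 25 above and 16 below. Of them 0 reached an unadjusted p under 0.05 (5.19% of all genes). The smallest p belonged to Akr1b7 (log2 fold change -0.69, SE 0.34), an aldo-keto reductase, Adh7 (log2 fold change -0.56, SE 0.32), an alcohol dehydrogenase, and Aldh1a1 (log2 fold change -0.28, SE 0.16), which makes retinoic acid. Among 24 other conjugating enzymes 9 lay above and 15 below 0 (median -0.064), but by library size alone 14 above and 10 below. Inmt, a methyltransferase, was at 29.8, 36.8 and 5.98 CPM (WT) against 59.1, 14.5 and 121 CPM (KO) (log2 fold change 1.42, SE 0.78), with WT replicate 3 and KO replicate 2 lowest, as in the members above. Papss2, which makes the sulfate donor, had a log2 fold change of -0.24 (SE 0.11) and As3mt, the arsenic methyltransferase, of -0.39 (SE 0.20).

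Among 20 drug transporters 4 lay above and 16 below 0 (median -0.15), with 2 lower at an unadjusted p under 0.05 (2.1% of all genes). These were Slc29a1, a nucleoside carrier at 103, 107 and 107 CPM (WT) against 92.0, 78.9 and 87.4 CPM (KO) (log2 fold change -0.29, SE 0.088), and Slc22a5, the carnitine carrier (log2 fold change -0.58, SE 0.18). Abcb1a, a drug efflux pump, had a log2 fold change of 0.23 (SE 0.14). Of 20 NRF2 targets outside the members 4 lay above and 16 below 0 (median -0.13). Of them 1, Gsr, lay lower at an unadjusted p under 0.05 (2.1% of all genes). The smallest p values belonged to Gsr (log2 fold change -0.23, SE 0.098), glutathione reductase, Hmox1 (log2 fold change -0.50, SE 0.27), heme oxygenase, and Taldo1 (log2 fold change -0.20, SE 0.11), of the pentose phosphate pathway. Among 6 tested genes listed as an aryl hydrocarbon receptor battery outside the members, 1 lay above and 5 below 0. Of these 1, Lrat, lay lower at an unadjusted p under 0.05 (2.1% of all genes). Whether the level of Lrat follows that receptor here was not tested. The log2 fold change of Lrat, also a stellate cell marker, was -0.42 (SE 0.16), that of Fmo2 0.37 (SE 0.25) and that of Nqo1 -0.16 (SE 0.17). Of the 6 stellate cell markers, Lrat included, 2 lay above and 4 below 0 (median -0.013). By library size alone the battery list split evenly, 3 and 3.

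Growth hormone signalling and sex-biased liver genes were read because several members are sex-biased. Of 25 tested genes 8 lay above and 17 below 0 (median -0.14), with 3 lower at an unadjusted p under 0.05 (2.1% of all genes). They were Stat5b, which carries the growth hormone signal in hepatocytes, at 121, 96.5 and 111 CPM (WT) against 85.0, 88.5 and 91.2 CPM (KO) (log2 fold change -0.31, SE 0.10), Stat5a (log2 fold change -0.38, SE 0.15) and Prlr, the prolactin receptor (log2 fold change -0.71, SE 0.29). Of the listed female-biased members 6 were tested, with 5 above and 1 below 0 (median 0.12). Of 8 male-biased members 3 lay above and 5 below 0 (median -0.14). In both lists WT replicate 3 had the lowest mean of log2 CPM.

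Other lists inside the members were read by library. The 12 pericentral members stood at a mean log2 CPM of 7.87, 7.92 and 6.53 (WT) against 7.88, 6.89 and 7.88 (KO), with 6 above and 6 below 0. The 18 targets of the pregnane X and constitutive androstane receptors stood at 5.78, 6.15 and 4.80 (WT) against 6.11, 5.17 and 6.03 (KO), with 11 above and 7 below 0. The 13 NRF2 targets among the members stood at 6.47, 6.58 and 5.44 (WT) against 6.46, 5.91 and 6.47 (KO) and the 8 aryl hydrocarbon receptor targets at 3.71, 4.01 and 3.02 (WT) against 3.85, 3.37 and 3.93 (KO). These lists overlap one another. In these 4 lists and the female-biased one WT replicate 3 was lowest and KO replicate 2 the next. In the male-biased list, at 4.59, 4.23 and 3.78 (WT) against 4.07, 4.20 and 4.33 (KO), KO replicate 1 followed WT replicate 3, and KO replicate 2 came after it.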

How the data were processed

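Polyadenylated RNA of 6 livers was made into directional libraries and sequenced on an Illumina NovaSeq, per the labels' protocols. The authors deposited a table of raw counts, whole numbers with Ensembl gene IDs in rows and the samples in columns. The submitters' processing notes list DESeq2 1.30.0, featureCounts 1.6.3 and STAR 2.7.6a, and mm10 and GRCm38 as builds, and assign no roles to them. How strand and reads matching several genes were treated is not given in the sources used here, nor is the annotation release. Near-identical members can therefore share reads. GENCODE M21 (GRCm38) gave symbols, positions and merged exon lengths for 52135 of 55416 gene IDs (94.1%).

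The test was edgeR 4.0.16 (glmQLFit, glmQLFTest) in R 4.3.3 on the counts, with genotype as sole term, TMM scaling, genes kept by filterByExpr at 10 counts (total 15) and Benjamini-Hochberg adjustment over 17083 genes at 0.05. Logged levels used a prior count of 2. limma 3.58.1 and DESeq2 1.42.0 were alternatives. The procedure was tested on simulated data. Every pair of libraries differed beyond sampling noise. Named genes were Ephb2, the member with the highest level per kilobase in each family, 8 members with the smallest p per direction, 6 with the largest SD, textbook members, and receptors and up to 3 genes of each list. The members and lists were chosen with earlier results of these data known. RefSeq promoters were matched by symbol.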

Additional observations from a re-analysis of the deposited data

How the results depend on the processing

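The absence of called members held under every alternative run, namely 3 other scalings, 2 other count filters, DESeq2, limma-voom, a robust fit, the replicate block, the acute phase covariate and each library left out. Over all genes, 3 were called without a count filter, 8 by DESeq2 and 0 to 2 with a library left out. Members higher at an unadjusted p under 0.05 numbered 2 without a count filter (Cyp2u1 and Cyp2b13) and 1 by DESeq2 (Cyp2b13, beside 1.45% of all genes). The share of all genes that lay higher without a count filter is not given here. With a library left out, 0 to 4 members lay higher, the 4 without WT replicate 2 (beside 6.21% of all genes). Members lower then numbered 0 to 5, the 5 without WT replicate 3 (beside 1.83% of all genes). All genes at that level numbered 886, 1390 without a count filter, 537 with the replicate block and 452 (without KO replicate 3) to 1858 (without WT replicate 2). The median of all genes went from -0.0048 to 0.075 by library size alone and 0.030 by upper-quartile scaling. The Gstp median of -0.12 went to -0.040 by library size alone and ran from -0.19 (without WT replicate 3) to -0.070 (without KO replicate 3), and that of Cyp3a from -0.17 to 0.44 (without WT replicate 2). The share of members above 0 was 46.8%, and 67.1% by library size alone (all genes 49% and 67.1%).

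Of 62 named genes, 41 kept their sign under every alternative run. By library size alone Cyp1a2 (0.056), Cyp2d26 (0.0057), Cyp2e1 (0.032), Gsta3 (0.027) and Nfe2l2 (0.037) turned positive, and Cyp1a2 also with upper-quartile scaling (0.014). By limma-voom Cyp1a2 (0.036), Cyp2e1 (0.11) and Gsta3 (0.021) did, and with the replicate block the same 3 (0.022, 0.082 and 0.014). With the acute phase covariate Cyp2b9 (-0.21), Cyp2c37 (-0.15), Gsta1 (-0.12), Gsta2 (-0.043) and Ugt2b5 (-0.031) turned negative. With a library left out, the lowest and highest values were -0.31 to 0.21 for Cyp1a2, -0.20 to 0.74 for Cyp2a5, -0.47 to 0.43 for Cyp2b9, -0.058 to 0.48 for Cyp2c23, -0.13 to 0.74 for Cyp2c29, -0.26 to 0.55 for Cyp2c37, -0.13 to 0.66 for Cyp2c39, -0.23 to 1.54 for Cyp2c55, -0.20 to 0.015 for Cyp2d26, -0.44 to 0.25 for Cyp2e1, -0.90 to 0.094 for Cyp2f2, -0.11 to 1.00 for Cyp3a11, -0.37 to 0.72 for Gsta1, -0.20 to 0.73 for Gsta2, -0.31 to 0.14 for Gsta3, -0.30 to 0.073 for Gstm1, -0.30 to 0.040 for Gstt1, -0.21 to 0.013 for Gstz1, -0.11 to 0.034 for Nfe2l2, -0.57 to 0.087 for Nr1i3 and -0.26 to 0.30 for Ugt2b5. The cause of these changes was not tested.

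Same-numbered libraries did not deviate together (correlations of -0.026, -0.44 and -0.31). These correlations cannot decide whether the numbers pair samples, because each genotype has so few libraries and the labels do not mention pairing. The replicate block changed no call. Summed family levels per kilobase of exon gave log2 ratios within 1 SD of those in CPM. filterByExpr kept the same number of members as the count minimum, 79. Counting error weighs most on the 5 members with a mean under 1 CPM.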
